A study of Mus musculus with 3 samples.

Results

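Secreted signals of regulatory T cells were described through 10 genes that encode cytokines, a chemokine and a growth factor: Il10, Ebi3, Il12a, Il2, Il4, Il21, Ifng, Tnf, Areg and Ccl5. They were taken as a list of names with no threshold on their values, and each symbol matched 1 of the 55536 genes of the deposited table, of which 22028 are protein-coding. The RNA-seq libraries held polyadenylated RNA of regulatory T cells from an adult male mouse of 4 months with a Foxp3CreERT2 and a Rosa26YFP allele, labelled as derived from bone marrow haematopoietic cells. The sort, any stimulation and any tamoxifen treatment of the cells were not given in the sources used here. All 3 libraries are technical replicates of 1 biological replicate and form 1 group, so levels and their spread are described and no conditions are compared. They are named here libraries 1, 2 and 3, after their technical replicate numbers.

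Regulatory T cells are CD4 T cells that restrain other immune cells under the control of the transcription factor Foxp3. They act in part through secreted products, of which interleukin-10 is the best known, and they consume interleukin-2 that they do not make well themselves, since Foxp3 represses its gene. Cytokine genes of other helper T cells, such as Ifng, Il4 and Il21, are mostly silent in resting T cells and are transcribed in bursts after stimulation through the antigen receptor.

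The libraries held 9299054, 9188612 and 8284381 expected counts in libraries 1, 2 and 3. Levels are given in TPM, a measure per transcript length that is scaled to the same total in each library. The labelled cell type was checked against its markers. All 10 regulatory T cell markers and all 9 general T cell markers reached 1 TPM in every library. All 12 B cell markers and 5 of 6 plasma cell markers did so as well, led by Ighm and Igkc, which encode antibody chains. The summed level of the B cell list was 3822, 2925 and 3748 TPM in libraries 1, 2 and 3, and that of the plasma cell list was 2001, 217 and 1397 TPM.

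A gene was called detected when it reached 1 TPM in every library. By that rule 6 of the 10 genes were detected (Ccl5, Ebi3, Tnf, Il10, Ifng and Il4), against 45.9% of all protein-coding genes. The other 4 (Areg, Il12a, Il21 and Il2) had between 3 and 16 counts in any library and are low counts throughout. Il4, though detected, had counts as low, at 12, 9 and 7 in libraries 1, 2 and 3. The median of the 10 mean levels was 4.74 TPM, beside a median of 0.72 TPM over all protein-coding genes. In order of mean level the genes were Ccl5, Ebi3, Tnf, Il10, Ifng, Il4, Areg, Il12a, Il21 and Il2. Levels of neighbours did not overlap between libraries for Ccl5 and Ebi3 (ratio of means 5.63), Ebi3 and Tnf (4.07), Tnf and Il10 (1.93), Ifng and Il4 (2.04), and Il4 and Areg (2.52). The 95% counting intervals of single libraries still overlapped in 3 of these pairs. They reached from 9.95 to 14.6 TPM for Tnf in library 3 and from 8.59 to 13.3 TPM for Il10 in library 2. For Ifng in library 3 they reached from 3.02 to 6.48 TPM, for Il4 in library 1 from 1.79 to 6.04 TPM, and for Areg in library 2 from 1.28 to 3.64 TPM. The levels overlapped for Il10 and Ifng and among Areg, Il12a, Il21 and Il2, so no order can be read within those groups. In RNA of a whole cell population, fewer expressing cells and less RNA per cell cannot be told apart.

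**Figure D1:**
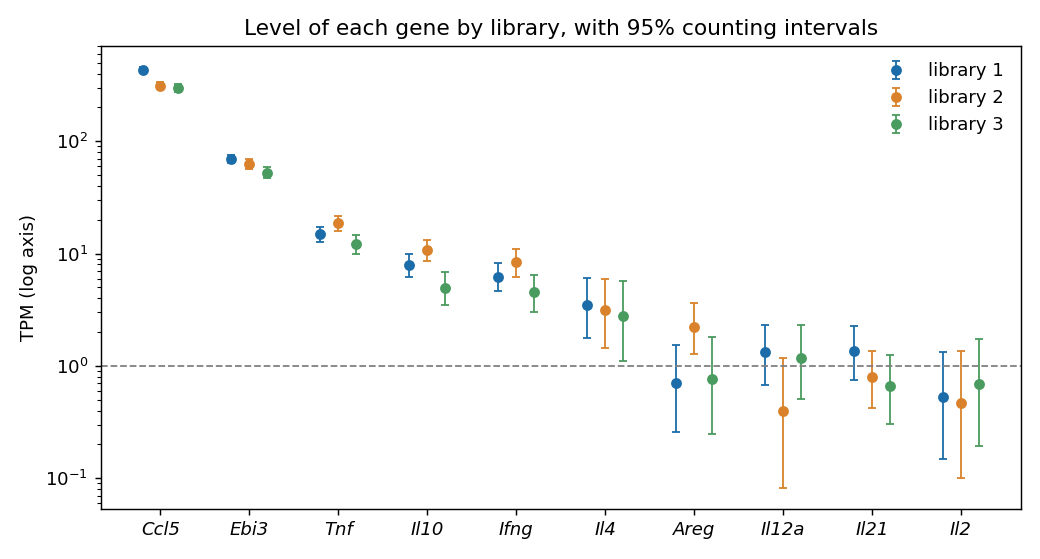
Level of each gene in TPM (vertical log axis) in libraries 1, 2 and 3 (points), with 95% counting intervals of each library's count (bars), in order of mean level. The dashed line is 1 TPM; Ccl5 stands at 297 to 434 TPM, and the 4 genes on the right have points below the line in at least 1 library.

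Ccl5, on mm10 chromosome 11 from 83525778 to 83530518 on the minus strand (ENSMUSG00000035042.2), encodes a chemokine that draws T cells, monocytes and eosinophils and that T cells transcribe late after activation. Its level was 434, 312 and 297 TPM in libraries 1, 2 and 3, from 1255, 766 and 657 counts, with a mean of 348 ± 75.0 TPM (SD, n = 3). Library 1 stood above the other two, which lay close together. In these libraries 98.4% of protein-coding genes had a lower mean level. The coding transcript Ccl5-201 took 99.1%, 99.3% and 99.0% of the level of the gene, and the remainder fell to a transcript with a retained intron.

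Ccl5 was the highest chemokine gene of those listed. Of 33 other chemokine genes 7 were detected and 5 had no count in any library. The highest were Cxcl10, an interferon-induced chemokine, at 16.2 ± 5.21 TPM, Ccl1, the ligand of Ccr8, at 11.7 ± 3.96 TPM, and Ccl4, an inflammatory chemokine, at 10.3 ± 1.46 TPM. The 2 chemokine genes within 100 kb of Ccl5 were low, Ccl9 with 2 counts in each library and Ccl6 with 13, 0 and 15 counts. Cytotoxic cells also make Ccl5, and their markers were present at low levels. Of 6 CD8 T cell markers 3 were detected (summed level 23.0, 21.8 and 31.3 TPM), with Cd8b1 at 13.4, 14.7 and 17.4 TPM, and of 8 NK cell markers 3 (summed level 12.8, 10.2 and 23.4 TPM). The detected NK cell markers were Tyrobp at 4.40, 5.62 and 13.1 TPM, Fcer1g at 4.22, 1.46 and 5.18 TPM and Klrb1c at 3.14, 2.79 and 3.86 TPM, while the defining marker Ncr1 had 0.19, 0.00 and 0.25 TPM and Klra8 was at 0 in each library. The part of CD8 T cells and NK cells in the level of Ccl5 was not tested.

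Ebi3, on chromosome 17 from 55952640 to 55957022 on the plus strand (ENSMUSG00000003206.7), encodes a secreted subunit that resembles a cytokine receptor and has no signal on its own. Paired with the product of Il27 it forms interleukin-27, and paired with that of Il12a it forms interleukin-35, a product ascribed to regulatory T cells. Its level was 69.6, 63.0 and 52.7 TPM, from 550, 424 and 320 counts, with a mean of 61.8 ± 8.55 TPM (SD, n = 3). It was the second highest of the 10 genes, above 89.8% of protein-coding genes. An antisense gene, Gm16712, overlaps it and shares 19.0% of its 31-base stretches. Gm16712 had 2.59 ± 0.522 TPM. With the strand setting of the counting not given in the sources used here, some counts may be split between the 2 genes.

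The partner subunits of Ebi3 were far lower. Il12a, on chromosome 3 from 68690644 to 68698547 (plus strand, ENSMUSG00000027776.12), had 12, 3 and 8 counts, or 1.32, 0.40 and 1.18 TPM. Per length of transcript, Ebi3 exceeded Il12a by 52.7-fold (95% interval 29.9 to 103) in library 1, 158-fold (53.6 to 768) in library 2 and 44.7-fold (22.4 to 104) in library 3. The 3 intervals overlapped. These intervals, exact and for a ratio of counts, cover counting error only, as do the others below. Without molecular identifiers, reads copied by PCR may come from 1 molecule. Il27 had 0, 0 and 1 count. Il12b, which joins Il12a in interleukin-12, had 0, 0 and 3 counts, and Il23a, which joins Il12b in interleukin-23, had 1, 0 and 0. None of these 3 passed 3 counts in a library, a level at which absence cannot be told from a low level.

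The counts of Il12a did not rest on 1 transcript in every library. In library 1 they were divided between the coding Il12a-201 and Il12a-204, a transcript with a retained intron, at 49.7% and 50.3% of the level of the gene. In libraries 2 and 3 all of them were given to the coding Il12a-202. With 12 counts or fewer in a library, this division rests on few reads. In a second transcript table of the authors Il12a-204 had no counts in library 1. Il12a-206, also with a retained intron, took 44.0% of the level there. Dendritic cells, macrophages and B cells can also make Ebi3 or Il12a. Of 8 dendritic cell markers 1 was detected (summed level 3.91, 3.85 and 7.30 TPM), namely Zbtb46 at 1.55, 2.69 and 2.61 TPM. Of 8 macrophage and monocyte markers 4 were detected (summed level 25.5, 18.9 and 40.4 TPM), led by Lyz2 at 16.3, 7.27 and 24.2 TPM and Cd68 at 4.95, 4.56 and 7.42 TPM. The summed level of the B cell list, given above, was 2925 TPM or more in each library. Their part in the levels of Ebi3 and Il12a was not tested.

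Il10, on chromosome 1 from 131019845 to 131024974 (plus strand, ENSMUSG00000016529.5), encodes interleukin-10, which restrains antigen-presenting cells. It had 72, 84 and 35 counts, or 7.86, 10.8 and 4.97 TPM, with a mean of 7.87 ± 2.90 TPM (SD, n = 3). Library 3 was lower than both others. In counts scaled to library totals, library 2 exceeded library 3 by 2.16-fold (1.44 to 3.31) and library 1 exceeded it by 1.83-fold (1.21 to 2.83). All of the level fell to 1 annotated transcript, and no 31-base stretch of it occurs in a transcript of another gene. Plasma cells and B cells can make Il10 too. The summed levels of their markers are given above, and the part of these cells in the level of Il10 was not tested.

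Tnf lies on chromosome 17 from 35199381 to 35202007 on the minus strand (ENSMUSG00000024401.14) and encodes tumour necrosis factor, an inflammatory cytokine that is made as a membrane protein and cut free by Adam17. Its counts were 175, 187 and 110, or 14.8, 18.6 and 12.1 TPM, with a mean of 15.2 ± 3.26 TPM (SD, n = 3). Libraries 1 and 2 lay above library 3, where the level was lowest. All of it fell to Tnf-201. Adam17 itself had 36.7 ± 10.3 TPM, and its partner Rhbdf2, which brings it to the cell surface, had 2.76 ± 0.992 TPM.

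Tnf stands between its relatives Ltb, 3.1 kb away, and Lta, 1.2 kb away, which encode the subunits of lymphotoxin. Ltb had 243, 272 and 163 TPM and Lta 71.5, 78.2 and 76.0 TPM, each above Tnf in every library. Of 15 other TNF superfamily ligands 10 were detected. Ltb and Lta were the highest, followed by Tnfsf8, the ligand of CD30, at 45.9 ± 6.26 TPM. Only Tnfsf13 of the list had no count.

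Ifng and Il4 are the defining cytokines of Th1 and Th2 helper cells. Ifng, on chromosome 10 from 118441046 to 118445892 (plus strand, ENSMUSG00000055170.4), had 51.9, 48.9 and 28.9 counts, or 6.23, 8.35 and 4.51 TPM (mean 6.36 ± 1.92, SD, n = 3). Library 2 was highest in TPM but not in counts. In library 2 a short transcript with a retained intron, Ifng-202, was given 2.52 counts and 21.7% of the level of the gene, and it had none in the other libraries. TPM divides counts by length, so a read on a short transcript weighs more. As CPM (counts scaled to the library total), Ifng stood at 5.58, 5.33 and 3.49. The gene shares 22.6% of its 31-base stretches with Gm49751, a gene model inside it at 0.443 ± 0.146 TPM, and counts may be divided between them.

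Il4, on chromosome 11 from 53602982 to 53618669 (minus strand, ENSMUSG00000000869.12), had 12, 9 and 7 counts, or 3.46, 3.14 and 2.76 TPM (mean 3.12 ± 0.350, SD, n = 3). Its annotated transcripts are short, which puts so few counts above 1 TPM. The 95% counting interval of its level in library 3 was 1.11 to 5.69 TPM, wider than the range over the libraries. Its neighbour Il13, a Th2 cytokine 12.7 kb away, had 0, 0 and 1 count. Rad50, the DNA repair gene beyond it that holds the locus control region of the Th2 cytokines, had 38.1 ± 3.73 TPM. The 4 annotated transcripts of Il4 shared its counts differently between libraries. Il4-204 took all of them in library 1, and Il4-201 took 76.5% and 63.8% of the level in libraries 2 and 3. In the second transcript table Il4-204 led libraries 1 and 2, at 85.6% and 60.9%, and Il4-203 led library 3, at 47.6%. With so few counts, the division cannot be read as a difference between libraries. Mast cells and basophils also make Il4. None of their 8 markers was detected, 5 of them, among them Mcpt8 and Fcer1a, had no count in any library, and the sum was 0.34, 1.67 and 2.00 TPM. Most of it was Kit, at 0.34, 1.44 and 1.53 TPM. Their part in the level of Il4 was not tested.

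The transcription factors linked with these genes were present at very different levels. Of 26 such factors 25 were detected, with Stat6, which carries the interleukin-4 signal, at 217 ± 51.8 TPM, Batf at 180.3 ± 21.1 TPM and Klf13, a factor of Ccl5 transcription in T cells, at 161 ± 19.0 TPM. Eomes was the 1 factor below detection.

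Il21 and Il2 lie 96.8 kb apart on chromosome 3. Il21, from 37222759 to 37232636 on the minus strand (ENSMUSG00000027718.8), encodes a cytokine of T follicular helper cells that acts on B cells. It had 14, 13 and 9.16 counts, or 1.36, 0.80 and 0.66 TPM. The counts of libraries 1 and 2 were nearly equal while their levels were not. The effective length over which the counts were spread was 1278, 2356 and 2220 bases. The short coding transcript Il21-202 took 57.2%, 0% and 22.7% of the level, the long coding transcript Il21-201 took 20.6%, 26.7% and 64.2%, and Il21-203, with a retained intron, took 22.2%, 73.3% and 13.1%. An antisense gene, Gm12534, overlaps Il21 and had 0.00, 0.00 and 1.01 TPM.

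Il2, from 37120523 to 37125959 on the minus strand (ENSMUSG00000027720.7), encodes interleukin-2, the growth factor of T cells. It had 4.14, 3.12 and 4.13 expected counts, or 0.53, 0.47 and 0.69 TPM, the lowest mean level of the 10 genes. In the deposited gene table of whole-number counts Il2 had 0, 1 and 0 counts, and its estimated counts in the second transcript table were 0, 1.08 and 0. The sequence of Il2-201 contains parts that other transcripts hold as well. Of its 31-base stretches 15.0% occur in transcripts of 132 other genes, on either strand. One such part is a run of 187 bases at the 3' end (bases 947 to 1133 of the transcript) that is identical in Ntan1-201, a gene on chromosome 16 with 114 ± 10.3 TPM and 832, 562 and 554 counts. The other is a CAG repeat in the coding part, which is printed because its 31-base stretches occur in 131 other genes. The capitals mark the 12 copies of CAG in the bases 146 to 201 of Il2-201 (GENCODE M21, mm10 chr3:37125759-37125814, minus strand, 5' to 3').
Il2-201: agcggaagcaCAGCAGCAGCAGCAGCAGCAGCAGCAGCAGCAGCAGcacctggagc
The part that either stretch had in the counts of Il2 was not tested.

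Areg, on chromosome 5 from 91139599 to 91148432 (plus strand, ENSMUSG00000029378.5), encodes amphiregulin, a growth factor for epithelium that regulatory T cells of injured tissue release. It had 6, 16 and 5 counts, or 0.71, 2.24 and 0.77 TPM (mean 1.24 ± 0.867, SD, n = 3). Library 2 held most of its counts. Scaled to library totals, library 2 exceeded library 3 by 2.89-fold with an interval of 1.01 to 10.1, and library 1 stood at 0.371 of library 2 (0.119 to 0.997). These were among 30 such ratios computed over the 10 genes, with no adjustment for their number. Of 6 other ligands of the epidermal growth factor family, Egf alone was detected, at 2.03 ± 0.834 TPM, and Hbegf followed at 0.93 ± 0.431 TPM. Ereg, 46.0 kb from Areg, had 0, 1 and 0 counts.

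**Figure D2:**
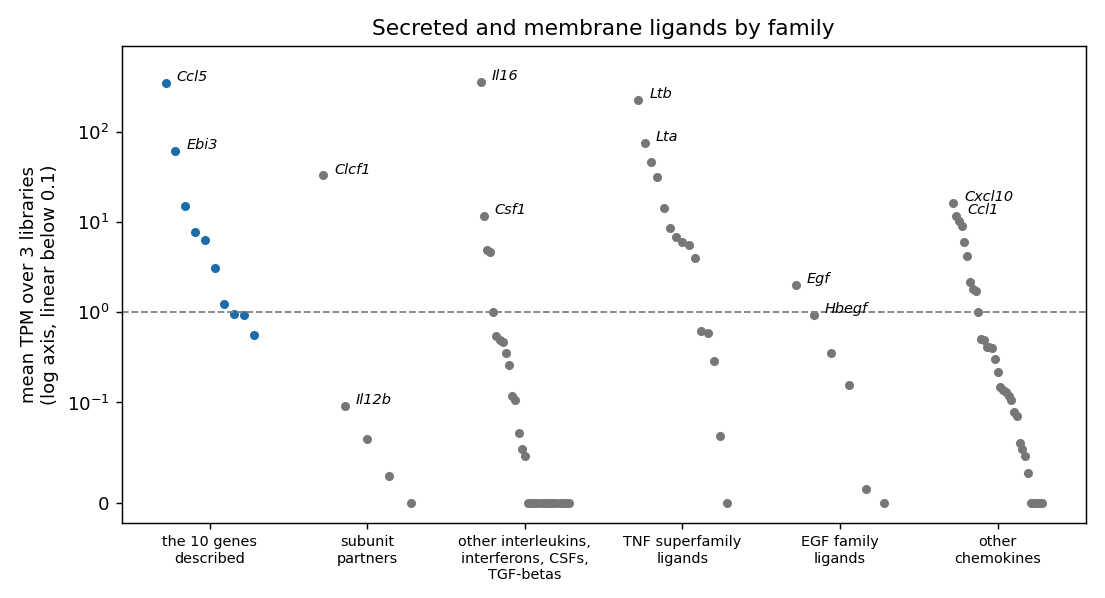
Mean level in TPM over 3 libraries (vertical axis, log scale above 0.1 and linear below) of the 10 genes (blue) and of ligand families (grey), 1 point a gene, with the 2 highest of each named. Il16, Ccl5 and Ltb stand at 226 TPM or more, while most other interleukins and chemokines lie below the dashed line of 1 TPM.

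Among 29 other interleukins, interferons, colony stimulating factors and TGF-beta genes, 4 were detected and 14 had no count in any library, Il9, Il17a and Il22 among them. The highest was Il16, a constitutively expressed precursor of a T cell chemoattractant, at 358 ± 44.1 TPM, on a par with Ccl5. Csf1, the growth factor of macrophages, had 11.7 ± 3.36 TPM and Tgfb1, which encodes a suppressive cytokine, 4.86 ± 1.23 TPM. Interleukin genes at the level of Ebi3 or Il10 were thus few in this list, which held 1 gene above Ebi3 and 2 above Il10.

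Receptors for the 10 products were compared with the ligands in the same libraries. Of 20 receptor genes 16 were detected, with a median level of 42.4 TPM. The receptor of interleukin-2 stood in contrast to its ligand. Its chains Il2rg, Il2rb and Il2ra had 1871 ± 11.2, 581 ± 146 and 304 ± 83.0 TPM, while Il2 was below 1 TPM in every library. Il2ra was lower in library 1 (211 TPM) than in libraries 2 and 3 (332 and 369 TPM). For Il21, its receptor chain Il21r had 122 ± 8.55 TPM. Il4ra, the chain that binds interleukin-4, had 114 ± 35.7 TPM, and Il13ra1, its partner in non-lymphoid cells, stayed under 1 TPM in libraries 2 and 3.

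For Il10, the chains Il10ra and Il10rb had 44.7 ± 15.0 and 109 ± 7.33 TPM. The interferon-gamma receptor chains Ifngr1 and Ifngr2 had 326 ± 16.3 and 21.2 ± 9.89 TPM, both above Ifng. Tnfrsf1b, the TNF receptor typical of regulatory T cells, had 111 ± 30.4 TPM and Tnfrsf1a 29.9 ± 6.88 TPM. The chains of the interleukin-27 receptor, Il27ra and Il6st, had 281.5 ± 32.7 and 40.1 ± 16.7 TPM. Il12rb1 had 18.2 ± 4.504 TPM and Il12rb2, needed with it for interleukin-12, had 1.07, 0 and 3.14 counts.

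Low receptor levels were seen for Areg and Ccl5. Egfr, the receptor of amphiregulin, had 1, 4 and 0 counts. Of the Ccl5 receptors, Ccr3 had 3.08, 2.49 and 3.95 TPM and Ccr1 had 0.93, 0.77 and 0.91 TPM. Both were far below Ccl5 in every library. These are levels of RNA of a mixed population, and whether the same cells held ligand and receptor was not measured.

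**Figure D3:**
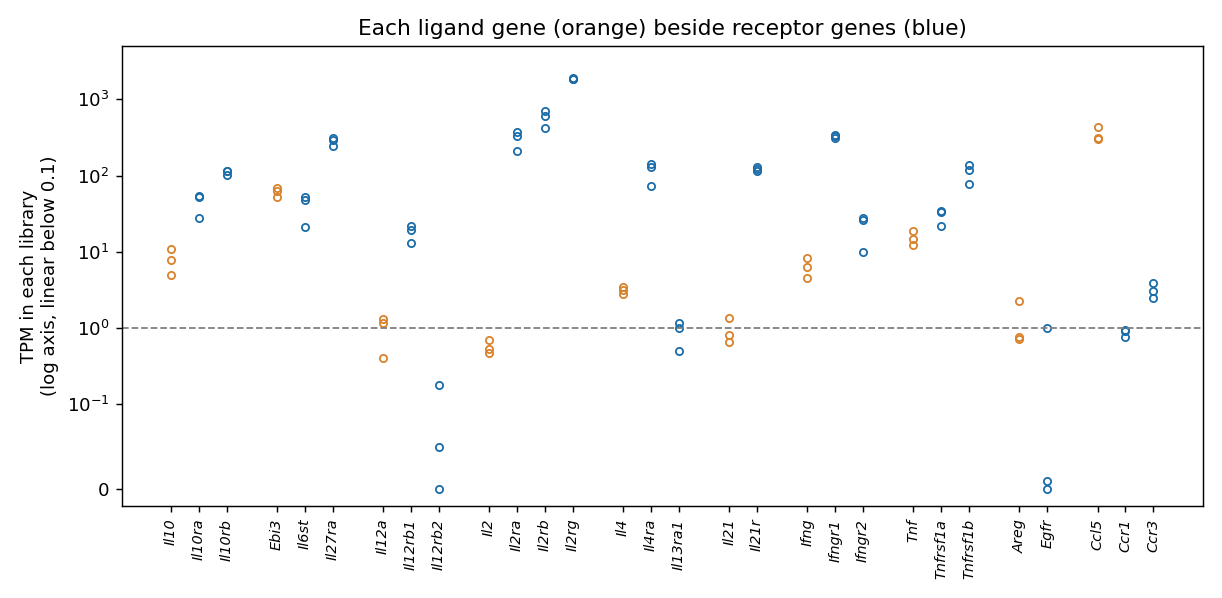
Level in TPM in each of the 3 libraries (open points; log axis above 0.1, linear below) of each ligand gene (orange) beside genes of its receptors (blue). The Il2 receptor chains lie at 211 TPM or more while Il2 lies under the dashed line of 1 TPM, and Ccl5 lies above Ccr1 and Ccr3.

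Cytokine RNAs are often short-lived because proteins such as Zfp36 bind AU-rich sequence in the 3' UTR and call in enzymes that remove the poly(A) tail. The 10 genes were therefore searched for the pentamer ATTTA and for the nonamer TTATTTATT, which contains it, on the strand of the transcript only and with overlapping copies counted. For each gene the coding transcript with the longest coding sequence was used (GENCODE M21). Pentamers were present in 8 of the 10, with 8 copies in the 764 bases of the Tnf UTR, 7 in Il2 (581 bases), 6 each in Il12a (497), Ifng (631) and Il10 (706), 4 in Areg (253), 2 in Il4 (104) and 1 in Ebi3 (245). Ccl5, the highest gene, had none in 199 bases. Il21-202 had none in 40 bases, while the longer UTR of Il21-201 (2578 bases) had 9. Over 20672 protein-coding genes with a 3' UTR, 61.6% held a pentamer. Among UTRs within 20% of the same length the share was 24.2% for Ccl5 and 6.47% for Il21-202, so most UTRs of those lengths lack one.

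The number of copies depends on the length of a UTR, so the other genes were set beside UTRs of like length in the same way. As many copies as in Tnf occurred in 0.340% of such UTRs, as many as in Il2 in 0.376%, in Il12a in 0.845%, in Areg in 0.902%, in Ifng in 1.21%, in Il4 in 1.73% and in Il10 in 1.86%. For Ebi3 the share was 30.9%. The nonamer occurred 5 times in Tnf and once each in Il2, Il12a and Areg, and was absent from the transcripts used for the others, while the longer Il21-201 held 1. It was held by 6.90% of all 3' UTRs, and by 4.37%, 3.66%, 3.13% and 1.68% of those of a length like Tnf, Il2, Il12a and Areg. Windows of 30 bases were tried that begin 5 bases before a pentamer, or as near to that as the UTR allows. Other windows were not searched, so a denser one may exist. The windows with the most pentamers are shown for the 6 genes with 2 or more copies in them, the densest of those tried. Capitals mark each ATTTA in these windows (5' to 3', strand of the transcript). Their mm10 positions are chr17:35199681-35199710 (minus) for Tnf, chr3:37121039-37121068 (minus) for Il2, chr5:91148371-91148400 (plus) for Areg, chr3:68698433-68698462 (plus) for Il12a, chr10:118445330-118445359 (plus) for Ifng and chr11:53612487-53612516 (minus) for Il4.
Tnf: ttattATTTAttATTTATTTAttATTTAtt
Il2: tATTTATTTAaatATTTAactttaATTTAt
Areg: aATTTATTTAatATTTAagtgttATTTAtt
Il12a: agcctATTTAtATTTATTTAttttctattt
Ifng: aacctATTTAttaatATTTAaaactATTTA
Il4: ttaatATTTAtatATTTAtaattcataaaa
A match describes the letters and is no measure of binding. All 14 genes of the list of factors that act on cytokine RNA decay were detected, led by Zfp36 at 223 ± 42.9 TPM, its relative Zfp36l1 at 127 ± 19.4 TPM and the deadenylase subunit Pan3 at 118 ± 29.95 TPM. Of 8 genes for processing and release of these products 7 were detected, led by Vamp8 at 271 ± 39.8 TPM and by Unc13d and Rab27a, which serve granule release, at 92.8 ± 24.0 and 62.2 ± 11.3 TPM.

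To ask whether the libraries differed more than counting error allows, counts scaled by TMM (edgeR) were compared by a chi-square test over 13071 genes with 30 or more counts, with Benjamini-Hochberg adjustment. It measures the spread between these libraries, which the labels call technical replicates, and the tests compare libraries and not conditions. Markers of other cells differed between them too, such as the plasma cell gene Jchain at 976, 38 and 615 counts and the neutrophil gene Ngp at 149, 0 and 1 count. Of the 6 genes with enough counts, 4 spread more than counting error (Ccl5, Ebi3, Il10 and Tnf), against 54.5% of all genes tested, so such a spread was common in these libraries. Scaled counts of Ccl5 were 1268, 720.5 and 693.5 in libraries 1, 2 and 3, a highest over lowest of 1.83-fold (chi-square test with edgeR scaling, adjusted p = 5.92e-50). Library 1 alone stood apart. For Ebi3 they were 556, 399 and 338, a 1.65-fold range (adjusted p = 2.73e-12), again with library 1 highest.

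Library 1 differed from the others by gene length. Tested genes were divided into 10 bins by length. In the bin of the shortest (median 615 bases), which holds Ccl5, the median log2 deviation of library 1 from the average library was 0.348. In the next bin, which holds Ebi3 and Ifng, it was 0.219, and in the bin of the longest genes it was -0.207. With factors computed within these bins, the range of Ccl5 shrank to 1.27-fold (adjusted p = 5.62e-07) and that of Ebi3 to 1.28-fold (adjusted p = 0.00548), both still past the threshold of 0.05. Neutrophil markers, none of 6 detected in every library, summed to 39.6, 0 and 3.74 TPM in libraries 1, 2 and 3. Elane was at 0 in each, and their part in these ranges was not tested. Leaving out library 1 ended both calls, at an adjusted p of 0.679 for Ccl5 and 0.105 for Ebi3, and the share of all tested genes called was then 17.2%.

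For Il10 and Tnf the low library was library 3. Scaled counts of Il10 were 72.8, 79.0 and 36.9, a 2.14-fold range (chi-square test with edgeR scaling, adjusted p = 0.00105), and those of Tnf were 177, 176 and 116, a 1.52-fold range (adjusted p = 0.00158). Leaving out library 3 ended both calls, at an adjusted p of 0.778 for Il10 and 0.869 for Tnf, with 46.5% of all tested genes called. The length bins changed them little, to 2.09-fold (adjusted p = 0.00333) and 1.496-fold (adjusted p = 0.00726). The range of Il10 was not found past counting error in the other tables, with adjusted p = 0.257 in the whole-number gene table and 0.0679 in the second transcript table. Ifng (52.6, 46.1 and 30.6, adjusted p = 0.0969) and Il21 (14.2 in library 1 and 12.2 in library 2, adjusted p = 0.709) did not pass. By the same chi-square test Ifng did pass in the whole-number gene table (adjusted p = 0.0170) and in the second transcript table (0.0263). Its lowest CPM there was also in library 3. Il4, Areg, Il12a and Il2 had fewer than 30 counts and were not tested.

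All 6 tested genes had their lowest scaled count in library 3, with 1 factor a library and with length bins alike. In the other deposited tables the same held for their CPM. Among protein-coding genes tested, 33.4% had their lowest scaled count in library 3 and 33.5% with length bins. In TPM, 11 of 22 detected ligands of the other lists were lowest in library 3, beside 20.8% of detected protein-coding genes. The other 11 ligands were lowest in library 1, beside 65.8% of detected protein-coding genes. The pattern of the 6 genes was seen in the values and was not tested. Library 3 also had the highest CD8 T cell, NK cell, dendritic cell, macrophage and mast cell marker sums given above. The far larger B cell and plasma cell sums, and the neutrophil sum, were highest in library 1. The part of these cells in the low values of the 6 genes was not tested.

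**Figure D4:**
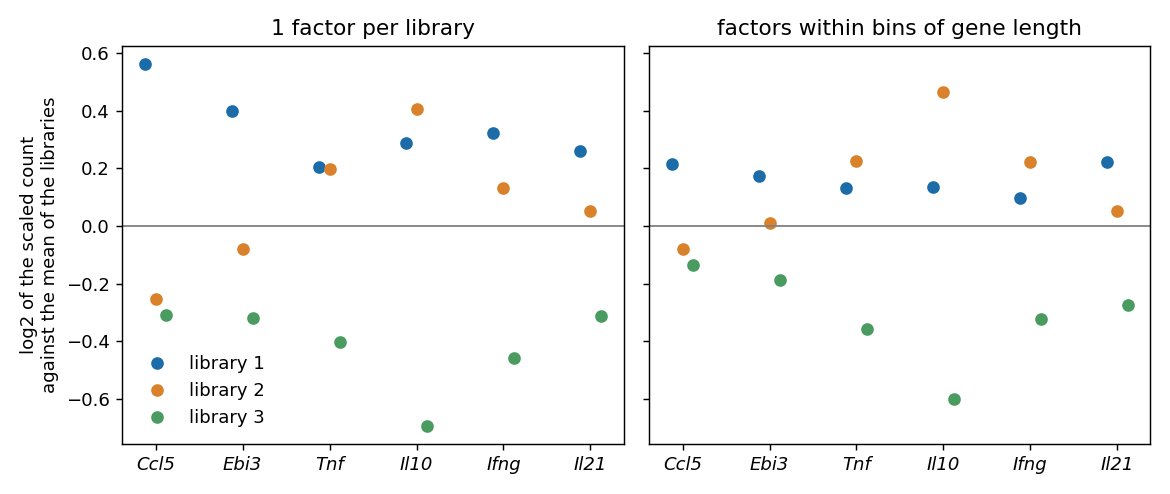
The log2 of each library's scaled count against the mean of the libraries for the 6 tested genes, with 1 scaling factor per library (left) and with factors within bins of gene length (right). Library 1 lies highest for Ccl5 and Ebi3 on the left and less so on the right, while library 3 lies lowest for each gene in both panels.

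The reads were quantified by the authors in other ways, which gave a check on the levels. Ccl5 had 1995, 1223 and 1091 counts in the whole-number gene table and 2033, 1227 and 1061 estimated counts in the second transcript table. Scaled to the genes that the tables share and centred on their median ratio, these were 1.34-fold and 1.28-fold of the expected counts of the main table, above the ratio of 76.0% and 89.8% of 9983 genes. Ebi3 had 907, 687 and 500 whole-number counts (1.34-fold), and in the second transcript table its ratio was 1.01. Tnf kept within 0.80 and 1.00 of its main values.

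Low genes moved more. Areg had 14, 28 and 11 whole-number counts, 1.72-fold of the main table, with library 2 again the highest, and with 30 or more counts there it passed the spread test (chi-square test with edgeR scaling, adjusted p = 0.0366). Il21 fell the other way, with 12, 7 and 3 whole-number counts (0.44 of the main table) and a ratio of 1.35 in the second transcript table. Il12a kept its lowest value in library 2, with 17, 2 and 5 whole-number counts and 19, 3 and 13 in the second transcript table. Il10 had 88, 94 and 66 whole-number counts, nearer to each other than the 72, 84 and 35 of the main table. Differences of over 2-fold in every library were seen for 13.7% of genes between the main and the whole-number table, and for 1.00% between the main and the second transcript table. The order of the 10 genes was the same by the TPM of the second transcript table. By the posterior mean TPM of the main table, Areg stood below Il12a and Il21.

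**Figure D5:**
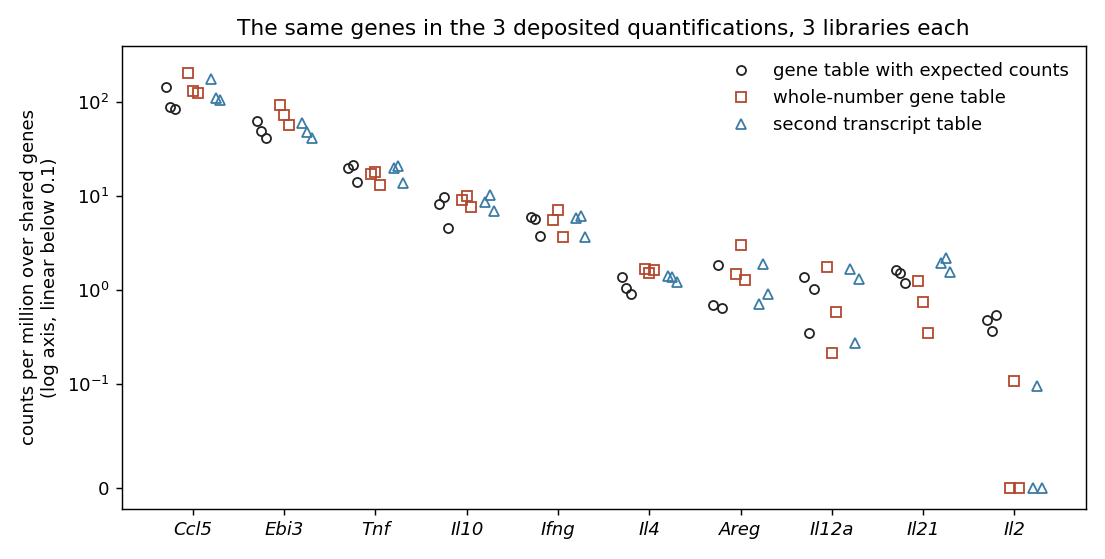
CPM over the genes the tables share (vertical axis, log scale above 0.1 and linear below) of the 10 genes in the gene table with expected counts (black circles), the whole-number gene table (red squares) and the second transcript table (blue triangles), 3 libraries each. Values of Tnf and Ifng lie close together across the tables, while Il2 falls to 0 in 2 libraries of both other tables.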

How the data were processed

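PolyA RNA-seq of 3 libraries was analysed. Per the deposited readme, the authors made a gene and a transcript table from an alignment to the mm10 transcriptome with GENCODE M21, a second transcript table from the reads and a transcript index, and a gene table of whole-number counts from a genome alignment with GENCODE M4. Per the file headers, the deposited values are expected counts, TPM and posterior mean TPM, effective length, estimated counts, and the percent of the TPM of a gene that a transcript takes. Aligner, quantifier, versions and strand setting were not given in the sources used here. Other entries of the table (tRNA-like, spike-in and phiX sequences) held 0.117% to 0.135% of the counts and were left out.

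Symbols were taken from the transcript table and matched by identifier. Expected counts were rounded for count tests. Levels are mean ± SD, and intervals are exact 95% Poisson or binomial intervals. A chi-square test compared scaled counts over all genes with 30 or more counts (edgeR 4.0.16 and DESeq2 1.42.0 for size factors, R 4.3.3), with a threshold of 0.05. It was tested on simulated data. Python 3.11.15, numpy 2.4.6, scipy 1.17.1, pandas 2.3.3 and matplotlib 3.10.9 were used. Alternatives were detection thresholds of 0.5 and 2 TPM, other scalings and filters, the other tables and leaving out each library. All 10 genes were named, with the 2 or 3 highest of each further list, the partner subunits, the receptors (some genes are not reported here) and the neighbours within 100 kb that are on the lists or adjacent. The genes, lists and tests were chosen with earlier results of these data known. The RNA preparations behind the libraries were not given in the sources used here, and the labels call the libraries technical replicates.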

Additional observations from a re-analysis of the deposited data

How the results depend on the processing

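The number of detected genes was 6 at 1 TPM, 8 at 0.5 TPM, 6 at 2 TPM, 6 by the TPM of the second transcript table and 8 by posterior mean TPM. Leaving out each library in turn gave 6 to 7, since Il12a passed without library 2. The number of these genes with a spread beyond counting error was 4 of 6 tested by TMM, by DESeq2 size factors, by library totals and with length bins, beside 54.5%, 54.4%, 56.2% and 44.7% of all genes tested. It was 4 of 10 with no count filter (28.2% of all genes) and 4 of 10 with 10 or more counts (46.9%). It was 5 of 7 in the whole-number gene table (Ebi3, Ifng, Tnf, Areg and Ccl5), beside 63.7% of all genes, and 5 of 9 in the second transcript table (Ebi3, Il12a, Ifng, Tnf and Ccl5), beside 47.8%, with Il10 lost in both. Leaving out each library in turn gave 2 to 5 of 5 tested. These were Il10 and Tnf without library 1 (17.2% of all genes called), Ebi3 and Ccl5 without library 3 (46.5%), and the 4 and Ifng (adjusted p = 0.0386, chi-square test with edgeR scaling) without library 2 (49.3%). Over all genes the count was 7122, and 2106 to 6012 without 1 library, the fewest without library 1. The TPM of the second transcript table was lower for the typical gene, at a median ratio of 0.528, 0.576 and 0.573 in libraries 1, 2 and 3. No paired analysis was possible because there is 1 group. With 3 to 16 counts a library, levels of Areg, Il12a, Il21, Il2 and Il4 are limited by depth.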
